A study of Sorghum bicolor with 34 samples.

Results

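Under limiting phosphorus (LP), the seminal primary root of sorghum was compared between its elongation zone and its root apex, using 2 RNA-seq libraries from each. These 4 libraries were chosen by region and phosphorus level from the sample labels, out of 10 RNA-seq libraries and 34 samples of a study of how sorghum roots respond to low phosphorus. All plants were BTx623, the inbred line that serves as the sorghum reference, grown in nutrient solution with 2.5 μM phosphate (LP) or 45 μM phosphate (sufficient phosphorus, SP) and harvested after 10 days of that treatment. The root apex library was made from the terminal 2 cm of the root and the elongation zone library from the stretch 2 to 4 cm behind the tip, and each replicate pooled 10 plants. The same zone difference in 4 SP libraries, 2 per zone, served as the comparison. The labels name the elongation zone libraries as intermediate root. For root apex LP replicate 2 the title, which was followed, gives the root apex, whereas a tissue label gives the whole root. Because both segments are mixtures of tissues, fewer cells of a type and less RNA per cell cannot be told apart in any of the values.

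The root apex holds the meristem, where cells divide, and the elongation zone behind it holds cells that stop dividing, lengthen and begin to differentiate into vascular tissue and root hairs. Plants short of phosphate replace membrane phospholipids with galactolipids and sulfolipids, switch on SPX proteins that sense inositol pyrophosphates and restrain the starvation response, and release or recycle phosphate with phosphatases, pyrophosphatases and organic acid metabolism. These genes are together called phosphate starvation induced (PSI) genes. Roles given here are those of the Arabidopsis gene that the study matched to each sorghum gene, or of the protein family.

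The deposited values were kallisto estimated counts per transcript, which were rounded and are given below as CPM (counts scaled to the TMM-normalized library size). The 4 LP libraries held 10114584 to 17739542 estimated counts. Elongation zone LP replicate 2 stood apart: 27578 transcripts were detected in it, against 31076 to 36028 in the other 3, and 171 transcripts at 1 CPM or more in the 9 other libraries were at 0 counts there, against 11 to 34. Its fragments were also shorter, at an estimated 168.1 bases against 185.4 to 187 in the other 3 LP libraries. Short fragments were not particular to it: elongation zone SP replicate 2 was at 166.7 bases and the 2 lateral root apex libraries at 168.0 and 168.8, and the lateral root apex SP library had 27753 transcripts detected and 369 at 0 by the same count. Log2 CPM correlated across transcripts at r = 0.921 between the 2 root apex LP libraries, at 0.817 between the 2 elongation zone LP libraries, and at 0.757 to 0.817 between libraries of the 2 zones. These correlations describe transcripts that share libraries and are not independent replicates.

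Of 33039 transcripts tested, 1442 (4.36%) were higher and 821 (2.48%) were lower in the LP elongation zone than in the LP root apex, with calls made where the Benjamini-Hochberg adjusted p of the edgeR quasi-likelihood fit was under 0.05. The higher group had a median log2 fold change of 3.48 and the lower group of -1.99, while the median over all tested transcripts was 0.05. In the higher group 559 transcripts differed by more than 4 on the log2 scale, against 137 in the lower group. The higher group included 129 transcripts at 0 counts in both root apex LP libraries, and the lower group 57 at 0 in both elongation zone LP libraries. Median CPM over the 4 LP libraries was 10.7 in the higher group, 32.6 in the lower group and 4.98 over all tested. The LP libraries of the zones did not overlap in any of the 1442 and 821, nor in 15696 of all 33039 tested. A lack of overlap is therefore no further support for a called transcript.

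The calls rested on a spread estimated over all 10 libraries, with 4 residual degrees of freedom. With only the 4 LP libraries in the fit edgeR called 0 in either direction, although 4811 had an unadjusted p under 0.05. In the fit of all 10 libraries 7963 of 33039 had an unadjusted p under 0.05, and DESeq2 called 3006 higher and 2226 lower. These are the backgrounds for the unadjusted and DESeq2 counts of gene lists under LP given below. Leaving out 1 library moved the 1442 higher and 821 lower to 241 and 127 (root apex LP replicate 1), 382 and 144 (root apex LP replicate 2), 2641 and 3215 (elongation zone LP replicate 1), 1618 and 767 (elongation zone LP replicate 2), 599 and 177 or 596 and 178 (root apex SP replicates 1 and 2), and 598 and 248 or 571 and 243 (elongation zone SP replicates 1 and 2). Of 49 called transcripts chosen for naming, 14 stayed called in all 8 of these fits, 39 without elongation zone LP replicate 2, 20 without root apex LP replicate 2 and 15 without root apex LP replicate 1. None changed direction in these fits. The 14 were SORBI_3004G284700, SORBI_3004G311000, SORBI_3001G372500, SORBI_3002G337100, SORBI_3010G046700, SORBI_3002G221700, SORBI_3010G185200, SORBI_3001G112100, SORBI_3008G079800, SORBI_3010G118200 and the 4 unpaired transcripts named last. The other 35 lost their call without at least 1 library.

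A gene could be given for 775 of 47110 transcript IDs (1.645%), and 638 of these were tested. Of them 44 (6.9%) were higher and 23 (3.61%) lower in the LP elongation zone. The genes described below come from these paired transcripts, so the gene groups cover a small share of the calls.

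Of the gene groups compared, the PSI lists had the largest share of calls with all their members counted. Of 25 tested transcripts in 3 lists of membrane lipid remodelling, sensing and signalling, and transport, recycling and release, 12 were higher in the LP elongation zone and 1 was lower (52.0% called, against 6.85% of all tested transcripts). Their median log2 fold change was 1.61. In 15 of the 25 both elongation zone libraries lay above both root apex libraries, which held for 23.9% of all tested transcripts. The lists are not independent evidence: 13 of their members come from a supplement that the study drew from these samples, and 10 of those 13 were higher, while of the 12 tested members from elsewhere 2 were higher and 1 was lower. The count of 12 became 10 without elongation zone LP replicate 2, 9 without that library and root apex LP replicate 2, 3 without root apex LP replicate 2, 2 without root apex LP replicate 1, 11 without elongation zone LP replicate 1, 4 with 1 or the other SP apex library left out, and 6 with 1 or the other SP elongation zone library left out. With only the 4 LP libraries edgeR called 0, and DESeq2 on all 10 libraries called 13. A block for fragment length gave 9 higher, and a test against a change of 1 on the log2 scale gave 4.

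**Figure D1:**
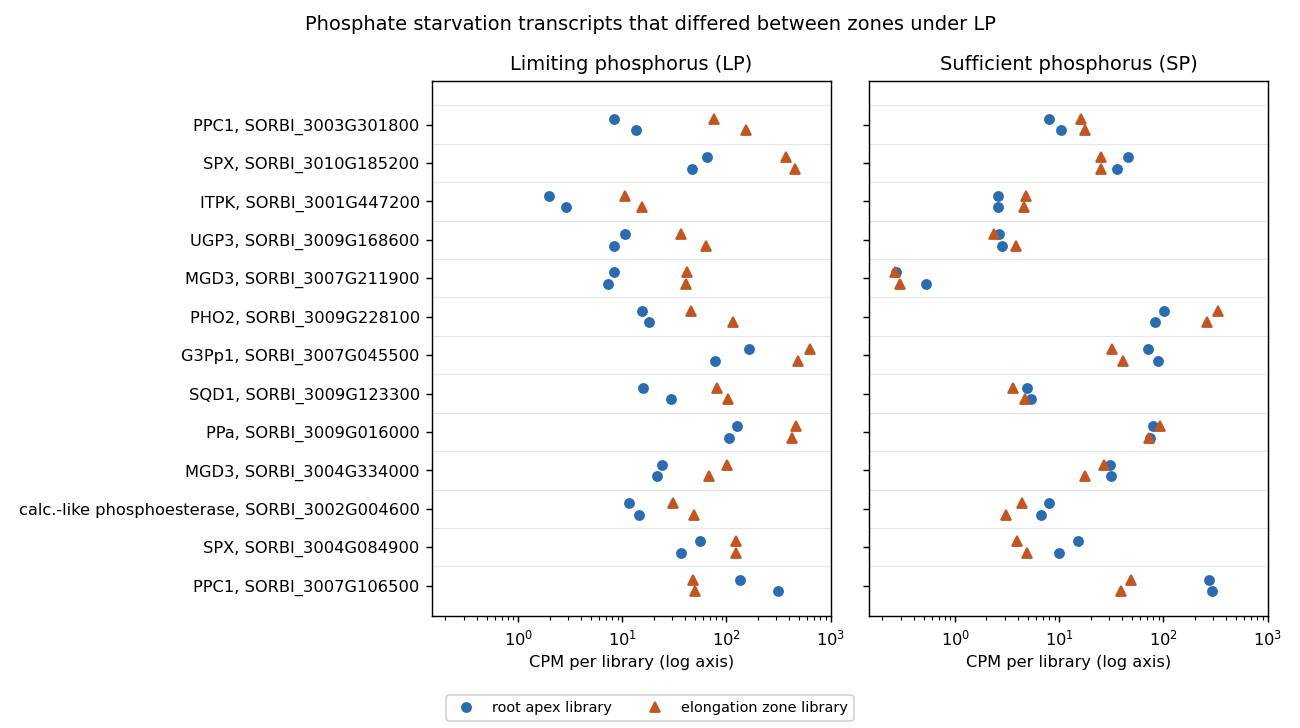
CPM of the 13 PSI transcripts called under LP, on a log axis, with 1 point per library (circles, root apex; triangles, elongation zone). Under LP both elongation zone libraries lie to the right of both root apex libraries for 12 of the 13. For the PPC1 match SORBI_3007G106500 they lie to the left. Such a lack of overlap held for every transcript called under LP. Under SP the zones lie closer together for most.

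Membrane lipid remodelling had 7 tested transcripts, of which 4 were higher and 0 lower in edgeR (0 lower also by DESeq2 or by an unadjusted p under 0.05), with a median log2 fold change of 1.90. Over all tested transcripts 4.36% were higher and 2.48% lower. Of the 7 members 3 come from the supplement drawn from these samples. Monogalactosyldiacylglycerol synthase MGD3 makes the galactolipid that replaces phospholipid. Its match SORBI_3007G211900 stood at 7.27 and 8.36 CPM in the root apex LP libraries and at 40.8 and 42.0 CPM in the elongation zone LP libraries. Its log2 fold change was 2.40 (SE 0.354, edgeR adjusted p = 0.0159), and under SP all 4 libraries of the 2 zones were at 0.527 CPM or less. The other MGD3 match, SORBI_3004G334000, stood at 21.6 and 23.8 CPM in the apex and at 68.2 and 101 CPM in the elongation zone, a log2 fold change of 1.90 (SE 0.314, edgeR adjusted p = 0.0213). So both MGD3 matches were higher in the elongation zone.

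Sulfolipid synthesis changed in the same direction. UGP3 makes the UDP-glucose used for sulfolipid, and its match SORBI_3009G168600 stood at 8.27 and 10.6 CPM in the apex and 64.0 and 36.6 CPM in the elongation zone, a log2 fold change of 2.41 (SE 0.408, edgeR adjusted p = 0.0222). SQD1 makes the sulfolipid head group, and its match SORBI_3009G123300 stood at 29.1 and 15.7 CPM in the apex and 104 and 81.3 CPM in the elongation zone, a log2 fold change of 2.05 (SE 0.36, edgeR adjusted p = 0.0249). Both libraries of the elongation zone exceeded both of the apex, as in every transcript called higher. The other 3 members match phospholipase D zeta 2, which breaks down phospholipid, and did not pass the test. SORBI_3009G109925 stood at 7.67 and 10.1 CPM in the apex and 10.7 and 6.94 CPM in the elongation zone, so that the zones overlapped. SORBI_3003G147000 stood at 9.86 and 2.61 CPM in the apex and 10.9 and 0.0 CPM in the elongation zone, with the 0 in replicate 2, and SORBI_3009G110000 stood between 0.385 and 2.89 CPM in the 4 libraries.

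In sensing and signalling, 4 of 6 tested transcripts were higher and 0 were lower in edgeR (0 lower also by DESeq2 or by an unadjusted p under 0.05), with a median log2 fold change of 1.84. Over all tested transcripts 4.36% were higher and 2.48% lower. Of the 6 members 3 come from the supplement drawn from these samples. The SPX domain gene SORBI_3010G185200, matched to Arabidopsis SPX2, stood at 46.7 and 64.4 CPM in the apex and 453 and 376 CPM in the elongation zone, a log2 fold change of 2.90 (SE 0.282, edgeR adjusted p = 0.00646). The other SPX2 match, SORBI_3004G084900, stood at 36.4 and 55.2 CPM in the apex and 123 CPM in both elongation zone libraries, a log2 fold change of 1.43 (SE 0.32, edgeR adjusted p = 0.0467). Under SP both SPX genes stood lower in both elongation zone libraries (25.4 and 25, and 4.95 and 3.93 CPM) than in both apex libraries (35.6 and 45.3, and 9.95 and 15.2 CPM).

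PHO2, a ubiquitin conjugating enzyme that removes phosphate transporters, lies in the same pathway. Its match SORBI_3009G228100 stood at 18.1 and 15.5 CPM in the LP apex and 114.5 and 45.3 CPM in the LP elongation zone, a log2 fold change of 2.25 (SE 0.448, edgeR adjusted p = 0.0346), and at 83.5 and 100.2 against 263 and 333 CPM under SP. It was thus higher in the elongation zone libraries at both phosphorus levels. In each zone its LP libraries stood below its SP libraries, so the name PSI, used here for all members of the 3 lists, does not describe it. Inositol kinases of the ITPK type feed the synthesis of the inositol pyrophosphates that SPX proteins bind. One match, SORBI_3001G447200, stood at 2.89 and 1.96 CPM in the apex and 15.3 and 10.7 CPM in the elongation zone, a log2 fold change of 2.42 (SE 0.443, edgeR adjusted p = 0.0278). The 2 other ITPK matches missed the threshold, at log2 fold changes of 0.32 (SORBI_3001G278700) and 0.42 (SORBI_3001G106900).

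In transport, recycling and release, 4 of 12 tested transcripts were higher and 1 was lower, with a median log2 fold change of 1.23. Over all tested transcripts 4.36% were higher and 2.48% lower. Of its 13 members 7 come from the supplement drawn from these samples. The inorganic pyrophosphatase SORBI_3009G016000, which frees phosphate from pyrophosphate and matches PPa4, stood at 106 and 125 CPM in the apex and 423 and 465 CPM in the elongation zone, a log2 fold change of 1.94 (SE 0.242, edgeR adjusted p = 0.0108). The sugar phosphate transporter SORBI_3007G045500, matched to G3Pp1, a glycerol phosphate permease, stood at 78.3 and 165 CPM in the apex and 485 and 639 CPM in the elongation zone, a log2 fold change of 2.21 (SE 0.405, edgeR adjusted p = 0.0281). The calcineurin-like phosphoesterase SORBI_3002G004600 stood at 14.4 and 11.6 CPM in the apex and 48.3 and 30.8 CPM in the elongation zone, a log2 fold change of 1.61 (SE 0.353, edgeR adjusted p = 0.0446). In each of these the zones did not overlap, as in every called transcript.

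Phosphoenolpyruvate carboxylase, which supplies organic acids, had 3 matches to PPC1 that did not move together. SORBI_3003G301800 stood at 13.4 and 8.29 CPM in the apex and 155 and 75.3 CPM in the elongation zone, a log2 fold change of 3.41 (SE 0.446, edgeR adjusted p = 0.0122). SORBI_3007G106500 went the other way, at 313 and 136 CPM in the apex and 49.4 and 47.8 CPM in the elongation zone, a log2 fold change of -2.21 (SE 0.405, edgeR adjusted p = 0.028). SORBI_3002G167000 stood at 34.8 and 16.7 CPM against 51.8 and 39.9 CPM and did not pass the test (log2 fold change 0.84, SE 0.382, edgeR adjusted p = 0.239). SORBI_3007G106500 was lower in the elongation zone under SP as well (log2 fold change -2.69, edgeR adjusted p = 0.0454).

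The remaining members of this list did not pass the test. Of the 2 transcripts of SORBI_3006G173000, another G3Pp1 match, OQU82104 stood at 3.99 and 1.89 CPM in the apex and 20.4 and 43.9 CPM in the elongation zone (log2 fold change 3.46, SE 1.06, edgeR adjusted p = 0.106), and OQU82103 at 9.07 and 11.9 CPM against 30.2 and 0.0 CPM, the 0 again in elongation zone LP replicate 2. The purple acid phosphatase match PAP10 in SORBI_3003G314400 stood at 56.2 and 32.5 CPM in the apex and 59.1 and 27.1 CPM in the elongation zone, so that the zones overlapped. The phosphate transporter match PHT1;8, SORBI_3010G133300, stood at 0.199 and 0.392 CPM against 0.671 and 1.67 CPM (log2 fold change 1.93, SE 1.14, edgeR adjusted p = 0.342). The remaining 2 tested transcripts, of phosphoesterases, had log2 fold changes of -1.53 (OQU87648, a second transcript of SORBI_3003G314400) and -0.54 (SORBI_3002G131200), and KXG31062, one more G3Pp1 match, was too low to be tested.

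Under SP the same 25 PSI transcripts had a median log2 fold change between zones of -0.38, and 0 were higher and 1 was lower in edgeR, against 0.403% higher and 0.515% lower (0.917% in all) over all tested transcripts. At an unadjusted p under 0.05 the SP counts were 2 higher and 7 lower, and DESeq2 called 1 higher and 2 lower. Among all 33039 tested transcripts, 4386 had an unadjusted p under 0.05 under SP, and DESeq2 called 952 higher and 1210 lower. Of the 25, 11 were higher in the elongation zone under LP and lower under SP by sign, a count not given here over all tested transcripts. The test of the difference itself, LP minus SP, called 0 of the 25 in edgeR, against 0.0121% of all tested transcripts. The lowest adjusted p was 0.0646, for the SPX gene SORBI_3010G185200 (difference of log2 fold changes 3.58). At an unadjusted p under 0.05 the difference was positive for 12 and negative for 0, and DESeq2 called 10 positive and 0 negative. Among all 33039 tested, 3070 had an unadjusted p under 0.05 for the difference, and DESeq2 called 686 positive and 256 negative. Members from the supplement drawn from these samples gave 10 of these 12 and 9 of these 10, and members from elsewhere 2 and 1. That supplement lists the PSI genes that the study found most up- or down-regulated, so these counts are not independent evidence. The LP and SP comparisons share no library, only the estimate of the spread.

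**Figure D2:**
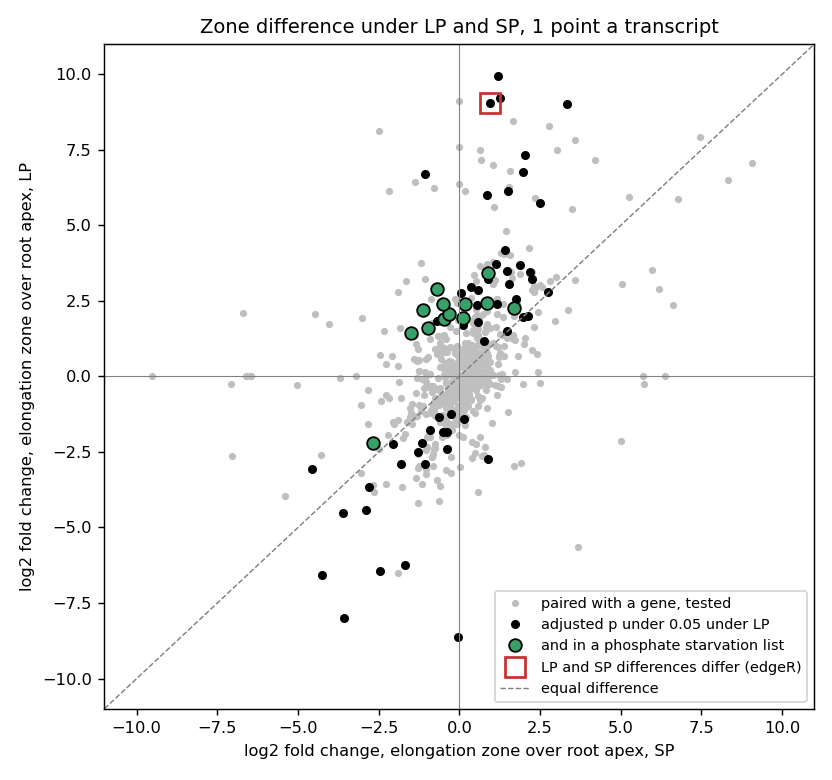
Log2 fold change of elongation zone over root apex under LP (vertical axis) against the same under SP (horizontal axis), 1 point for each of 638 tested transcripts paired with a gene; black points passed the test under LP and green points are PSI transcripts among them. Of the 25 tested PSI transcripts 11 were above 0 under LP and below 0 under SP, and the boxed SORBI_3004G284700 was the paired transcript whose LP and SP differences differed in edgeR; fitted values of transcripts at 0 counts in a group depend on the prior count.

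Of 16 tested transcripts of nitrogen and sulfur uptake and assimilation, 3 were higher and 1 was lower, with a median log2 fold change of 2.2, or 1.85 with transcripts at 0 in a group set at their bound. Over all tested transcripts 4.36% were higher and 2.48% lower. The list's counts became 0 higher and 0 lower without root apex LP replicate 1 and 1 and 0 without root apex LP replicate 2. Dropping elongation zone LP replicate 1 gave 5 and 2, and dropping replicate 2 of that zone gave 3 and 2. Without any 1 seminal root SP library they were 2 higher and 0 or 1 lower. Asparagine synthetase stores nitrogen in asparagine, and its ASN1 match SORBI_3005G003200 was among those higher. It stood at 0.299 and 1.63 CPM in the apex and 112 and 30.2 CPM in the elongation zone, a log2 fold change of 6.12 (SE 1.0, edgeR adjusted p = 0.0207). Another ASN1 match, SORBI_3001G406800, was not called. Of the matches of the high-affinity nitrate transporter NRT2.1 in the list, only SORBI_3004G009500 was called. It stood at 0.0 and 0.0653 CPM in the apex and 4.6 and 5.27 CPM in the elongation zone. This is 1 count over both apex libraries, and the ratio was 124 with a 95% counting interval of 22.0 to 4921 (edgeR adjusted p = 0.0325). An NPF family transporter, SORBI_3009G099000, was at 0 counts in both apex libraries and at 4.51 and 3.72 CPM in the elongation zone, which makes it at least 35.3-fold higher against a floor of 3 counts over the group (edgeR adjusted p = 0.0125).

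A match of nitrate reductase, which starts nitrate assimilation, was the member of this list that was lower. Other matches of the same enzyme were not called. This NIA2 match, SORBI_3004G312500, stood at 45.8 and 50.7 CPM in the apex and 6.04 and 8.48 CPM in the elongation zone, a log2 fold change of -2.73 (SE 0.482, edgeR adjusted p = 0.0251). Under SP it stood at 38.4 and 25.5 CPM in the apex and 83.7 and 34.4 CPM in the elongation zone, where the zones overlapped, and the LP minus SP difference did not pass the test (-3.62, edgeR adjusted p = 0.149). Intervals and floors cover counting error only, since the libraries were amplified by PCR without molecular identifiers.

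Of 35 tested transcripts of ion, metal and water transport, 2 were higher and 1 was lower, a median log2 fold change of 0.05. These are 8.57% of the list, near the 6.85% called over all tested transcripts. For the list's DESeq2 counts the background was 3006 higher and 2226 lower of 33039 tested transcripts. DESeq2 gave 6 higher and 1 lower, and edgeR gave 6 and 5 without elongation zone LP replicate 1, 5 and 0 without elongation zone LP replicate 2, and 1 or 2 and 0 without any 1 of the other 6 libraries. SORBI_3004G284700, matched to a family of malate transporters that includes the aluminium-activated ones (ALMT), had the largest called rise of all genes named by size at 5 CPM or more. It stood at 0.0996 and 0.196 CPM in the apex and at 86.5 and 86.8 CPM in the elongation zone, a log2 fold change of 9.05 (SE 0.457, edgeR adjusted p = 0.00252). Under SP it stood at 2.17 and 2.4 CPM in the apex and 3.62 and 5.16 CPM in the elongation zone, and the LP difference exceeded the SP difference by 8.11 on the log2 scale (edgeR adjusted p = 0.0413). This call was lost with a replicate block (edgeR adjusted p = 0.0613), a plant pool block (0.111) and a fragment length block (0.0534), and without any 1 root apex library or either SP elongation zone library (edgeR adjusted p up to 0.319), while the difference stayed at 7.79 to 8.71 with 1 library left out. It was thus lowest of the 8 seminal root libraries in the 2 LP apex libraries and highest in the 2 LP elongation zone libraries. The other 2 called members were the match of CLC-b, a vacuolar chloride and nitrate exchanger (SORBI_3010G214600, 34.6 and 32.6 CPM in the apex, 87.9 and 129 CPM in the elongation zone, log2 fold change 1.69), and a cation efflux protein of the metal tolerance type (SORBI_3009G029500), at 20.9 and 16.0 CPM against 5.75 and 4.62 CPM, a log2 fold change of -1.83.

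Cell wall genes gave 4 higher and 1 lower of 36 tested, with a median log2 fold change of 0.28, where 4.36% of all tested transcripts were higher and 2.48% lower. For the list's other counts the background, of 33039 tested, was 3006 higher and 2226 lower by DESeq2, and 7963 at an unadjusted p under 0.05. The balance of directions depended on the fit: DESeq2 gave 8 higher and 6 lower, an unadjusted p under 0.05 gave 8 and 10, and edgeR gave 6 and 7 without elongation zone LP replicate 1, 4 and 2 without elongation zone LP replicate 2, and 1 or 2 and 0 without any 1 of the other 6 libraries. The members described here are the 4 with the largest called changes, and the list holds further matches of UGE2, PME40 and the GH17 family. UGE2 makes UDP-galactose for wall polymers, and a match of it, SORBI_3001G372500, stood at 24.1 and 30.4 CPM in the apex and 292 and 321 CPM in the elongation zone, a log2 fold change of 3.49 (SE 0.309, edgeR adjusted p = 0.00624). Glucanases of the GH17 family cut callose and other glucans. SORBI_3009G119200, matched to BG3, stood at 33.8 and 167 CPM in the apex and 742 and 1849.7 CPM in the elongation zone, a log2 fold change of 3.69 (SE 0.822, edgeR adjusted p = 0.046). Another GH17 gene, SORBI_3001G109400, stood at 5.78 and 7.38 CPM against 27 and 40.2 CPM, a log2 fold change of 2.35 (SE 0.364, edgeR adjusted p = 0.0182). By contrast, the GH17 gene SORBI_3001G445700 was not called, at a log2 fold change of 0.16. A match of the pectin methylesterase PME40, SORBI_3003G148400, which modifies pectin, was lower, at 35.7 and 21.5 CPM in the apex and 4.8 and 7.26 CPM in the elongation zone, a log2 fold change of -2.24 (SE 0.41, edgeR adjusted p = 0.0278).

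The zones were checked against marker genes of dividing and differentiating cells. Of 9 tested transcripts matched to dividing cell genes, 1 was higher and 1 was lower in the elongation zone, with a median log2 fold change of -0.58. Over all tested transcripts 4.36% were higher and 2.48% lower. Both called members match MAP65-6, of a family that bundles microtubules in the spindle and the phragmoplast. SORBI_3001G112100 stood at 52.8 and 99.5 CPM in the apex and 6.81 and 11.4 CPM in the elongation zone, a log2 fold change of -3.06 (SE 0.407, edgeR adjusted p = 0.0125), and it was lower under SP too (log2 fold change -4.57, edgeR adjusted p = 0.0211). SORBI_3002G221700 stood at 33.6 and 50.9 CPM in the apex and 372 and 288 CPM in the elongation zone, a log2 fold change of 2.96 (SE 0.302, edgeR adjusted p = 0.00713). The summed CPM of the list was 283 to 305 in the apex and 411 to 581 in the elongation zone, and without SORBI_3002G221700 it was 232 to 271 against 123 to 209.

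Other dividing cell markers did not pass the test. A cyclin, SORBI_3003G134500, stood at 4.28 and 2.68 CPM in the apex and 1.34 and 0.0 CPM in the elongation zone, and a MAP65 transcript of SORBI_3001G442800 (OQU92942) at 19.4 and 12.5 CPM against 4.03 and 0.0 CPM. The matches of SMC1 (SORBI_3007G161000), a cohesin subunit, of the cytokinesis kinase FUSED (SORBI_3003G423600), of MAP65-4 (SORBI_3003G260700) and of the cell cycle regulator SCL28 (SORBI_3010G017400) had log2 fold changes of 0.08, -0.58, -0.02 and 0.49, and the second transcript of SORBI_3001G442800 (EER92583) of -0.63. One MAP65-4 match, SORBI_3004G024800, was at or near 0 in all 4 LP libraries and was not tested. Of the 9 tested, 3 had a log2 fold change above 0 and 6 below.

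Of 6 differentiating cell markers, 0 were called in edgeR, with 1 higher and 2 lower at an unadjusted p under 0.05 and 0 by DESeq2. The root hair regulator RSL3 match (SORBI_3001G079300) stood at 1.49 and 1.96 CPM in the apex and 3.88 and 8.73 CPM in the elongation zone, while the matches of the xylem loading channels and transporters SKOR (SORBI_3010G102800, 31.1 and 40.4 against 18.8 and 9.31 CPM) and NPF7.3 (SORBI_3004G276200, 2.19 and 1.63 against 0.575 and 0.128 CPM) stood lower in the elongation zone. The xylem regulator match MYB83 (SORBI_3008G112200) and 2 phloem callose synthase matches, SORBI_3003G179600 and SORBI_3003G180100, had log2 fold changes of 0.32, -0.15 and 1.37, and overlapped between zones. Their summed CPM was 100.4 to 113 in the apex and 52.5 to 143 in the elongation zone, with the lower value in replicate 2. Photosynthesis genes, which roots should use little, summed to 22.1 to 35.7 CPM in the apex and 32.9 to 37.2 CPM in the elongation zone. Of 4 tested, 0 were called in edgeR, with 2 higher at an unadjusted p under 0.05 and 0 by DESeq2. The part of a different cell make-up of the libraries in the zone differences was not tested.

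**Figure D3:**
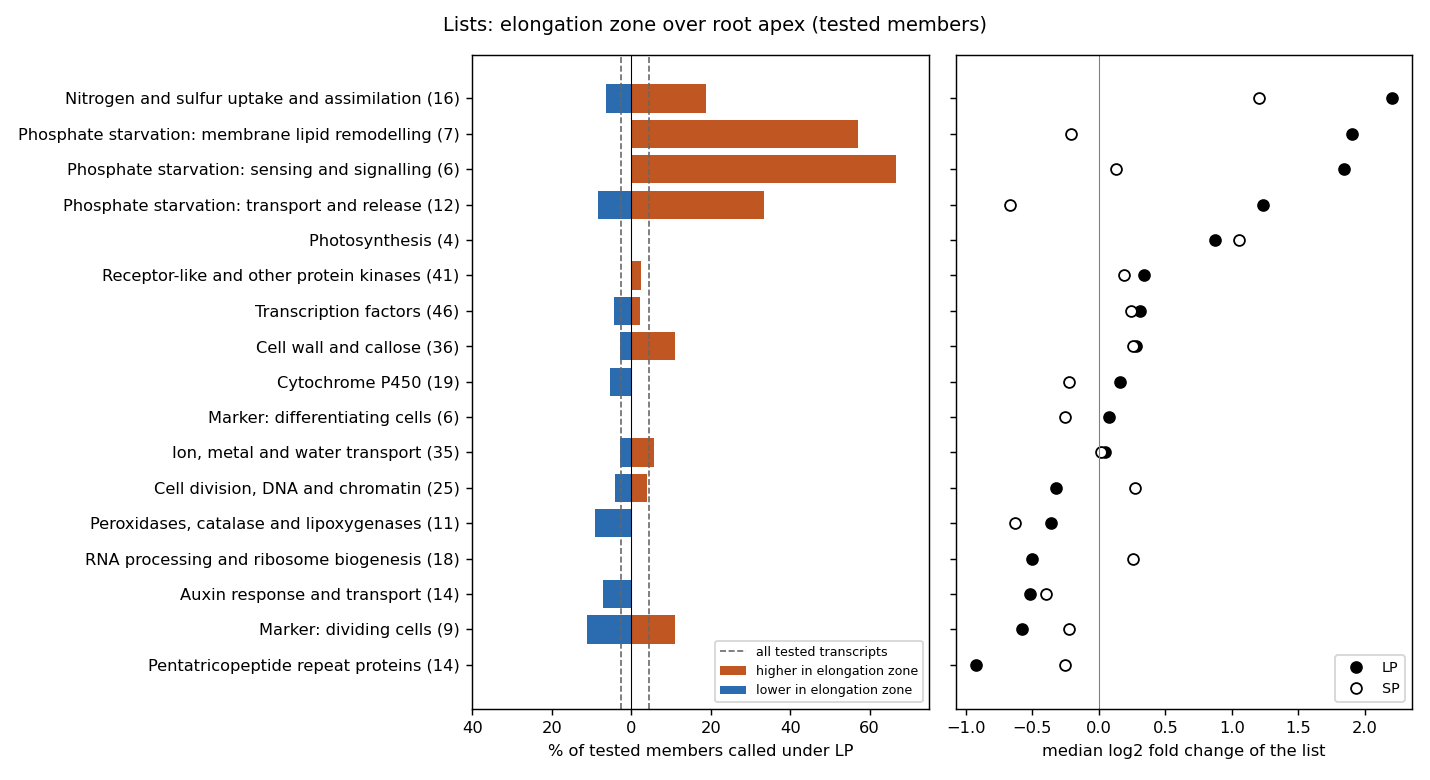
Left, share of tested members of each list called higher (right of 0) or lower (left of 0) in the LP elongation zone, with dashed lines at the shares over all tested transcripts (4.36% and 2.48%). Right, the median log2 fold change of each list under LP (filled) and SP (open); the 3 phosphate starvation lists had medians of 1.23 to 1.90 under LP.

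Auxin genes gave 0 higher and 1 lower of 14 tested in edgeR (2 higher and 3 lower at an unadjusted p under 0.05, 2 and 2 by DESeq2). Among all 33039 tested, 7963 had an unadjusted p under 0.05, and DESeq2 called 3006 higher and 2226 lower. The called member was the match of ARF19 (SORBI_3010G073600), an auxin response factor of lateral root formation, at 95.3 and 57.0 CPM in the apex and 26.4 and 18.1 CPM in the elongation zone, a log2 fold change of -1.77 (SE 0.352, edgeR adjusted p = 0.0341). These are 7.14% of the list. Of 46 tested transcription factors 1 was higher and 2 were lower, or 6.52% of the list, beside 6.85% of all tested transcripts. In edgeR fits without any 1 root apex library or any 1 SP elongation zone library, 0 were called in either direction. The cytokinin response regulator match ARR11 (SORBI_3003G393300) stood at 10.1 and 10.2 CPM in the apex and 36.0 and 21.4 CPM in the elongation zone, and a GRAS family gene (SORBI_3005G230200) at 10.5 and 12.1 against 3.21 and 3.08 CPM. Their log2 fold changes were 1.5 (edgeR adjusted p = 0.04) and -1.84 (edgeR adjusted p = 0.0241), and ARF19 was the other that was lower.

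Peroxidases, cytochromes P450 and kinases were called at 9.09%, 5.26% and 2.44% of those tested, beside 6.85% of all tested transcripts. For their other counts the background, of 33039 tested, was 3006 higher and 2226 lower by DESeq2, and 7963 at an unadjusted p under 0.05. Of 11 peroxidase, catalase and lipoxygenase transcripts 1 was lower and 0 were higher in edgeR (0 higher also by DESeq2 or by an unadjusted p under 0.05). The PRX7 match SORBI_3002G307900, a secreted peroxidase, stood at 8.97 and 7.31 CPM in the apex and 0.144 and 0.0 CPM in the elongation zone. This is a ratio of 96.7 with a 95% counting interval of 32.6 to 473, lower in the elongation zone (edgeR adjusted p = 0.0152). Of 19 cytochrome P450 transcripts 1 was lower and 0 were higher in edgeR (4 higher at an unadjusted p under 0.05, 0 by DESeq2): the CYP82 family gene SORBI_3001G082400 stood at 38.5 and 10.9 CPM in the apex and 1.25 and 0.899 CPM in the elongation zone, a log2 fold change of -4.51 (SE 0.76, edgeR adjusted p = 0.0222). Of 41 protein kinases 1 was higher and 0 were lower in edgeR (1 lower at an unadjusted p under 0.05 and by DESeq2). It matches wall-associated kinases (SORBI_3004G219700), at 0.0 and 0.0653 CPM in the apex and 1.73 and 3.08 CPM in the elongation zone, a ratio of 58.5 with a 95% counting interval of 10.2 to 2337 (edgeR adjusted p = 0.0452).

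Genes of RNA processing and ribosome biogenesis, and of pentatricopeptide repeat proteins that edit organelle RNA, had no call. For the first, edgeR called 0 of 18, with 0 higher and 4 lower at an unadjusted p under 0.05 and 3 lower by DESeq2, a median log2 fold change of -0.50 and summed CPM of 1318 to 1797 in the apex and 747.5 to 1113 in the elongation zone. For the second, edgeR called 0 of 14, with 2 lower at an unadjusted p under 0.05, 0 by DESeq2 and a median of -0.92. In 8 of these 14 both elongation zone libraries lay below both apex libraries, which held for 23.6% of all tested transcripts. Among all 33039 tested, 7963 had an unadjusted p under 0.05, and DESeq2 called 3006 higher and 2226 lower. Of 25 tested transcripts of cell division, DNA and chromatin, the 1 higher and 1 lower were the MAP65-6 matches described above.

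Other rises named by size, among transcripts with a gene averaging 5 CPM or more over the 4 LP libraries, included 3 transporter matches. The EamA domain gene SORBI_3004G311000, matched to amino acid exporters of the UMAMIT family, stood at 2.39 and 2.68 CPM in the apex and 51.9 and 40.1 CPM in the elongation zone, a log2 fold change of 4.18 (SE 0.281, edgeR adjusted p = 0.00257). A nucleoside transporter match (SORBI_3002G337100) stood at 2.29 and 3.0 against 22.7 and 36.2 CPM, and an ABC transporter match of the ABCC class (SORBI_3010G046700) at 10.9 and 8.75 against 96.1 and 88.0 CPM, with log2 fold changes of 3.47 and 3.23. Both were also higher under SP (log2 fold changes 2.19 and 2.24, edgeR adjusted p = 0.0467 and 0.0329). SORBI_3006G190100, matched to a salicylate hydroxylase, stood at 0.399 and 0.392 against 17.0 and 34.7 CPM, a log2 fold change of 6 (SE 0.944, edgeR adjusted p = 0.0191).

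Among the falls, SORBI_3008G079800, matched to a beta-glucosidase, was abundant, at 1204 and 739 CPM in the apex and 110.1 and 153 CPM in the elongation zone, a log2 fold change of -2.89 (SE 0.338, edgeR adjusted p = 0.00918). The organic cation transporter match OCT6 (SORBI_3002G339100) stood at 108 and 286 against 8.01 and 23.2 CPM, a log2 fold change of -3.66, and an alanine aminotransferase match (SORBI_3001G260800) at 220.5 and 289 against 53.0 and 36.7 CPM, a log2 fold change of -2.50. A match of NPY4, an NPH3 family protein of auxin-dependent growth (SORBI_3008G145300), stood at 8.77 and 14.8 against 0.24 and 0.0 CPM, and a phosphatidylinositol kinase family match (SORBI_3010G118200) at 63.2 and 48.7 against 12.1 and 8.93 CPM. Their log2 fold changes were -6.43 and -2.41. Among the matches of one Arabidopsis anthocyanin glucosyltransferase, 2 moved apart: SORBI_3006G097800 stood at 40.5 and 81.7 against 3.74 and 12.8 CPM (log2 fold change -2.89, edgeR adjusted p = 0.0494), and SORBI_3005G032200 at 2.29 and 2.15 against 12.6 and 24.5 CPM (log2 fold change 3.06, edgeR adjusted p = 0.0181). The remaining falls were a gene of unknown function (SORBI_3005G220900, 11 and 11.9 against 0.24 and 0.835 CPM) and a rhodanese domain gene (SORBI_3006G032700, 5.98 and 52.0 against 0.192 and 0.0 CPM), whose apex libraries differed most from each other.

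**Figure D4:**
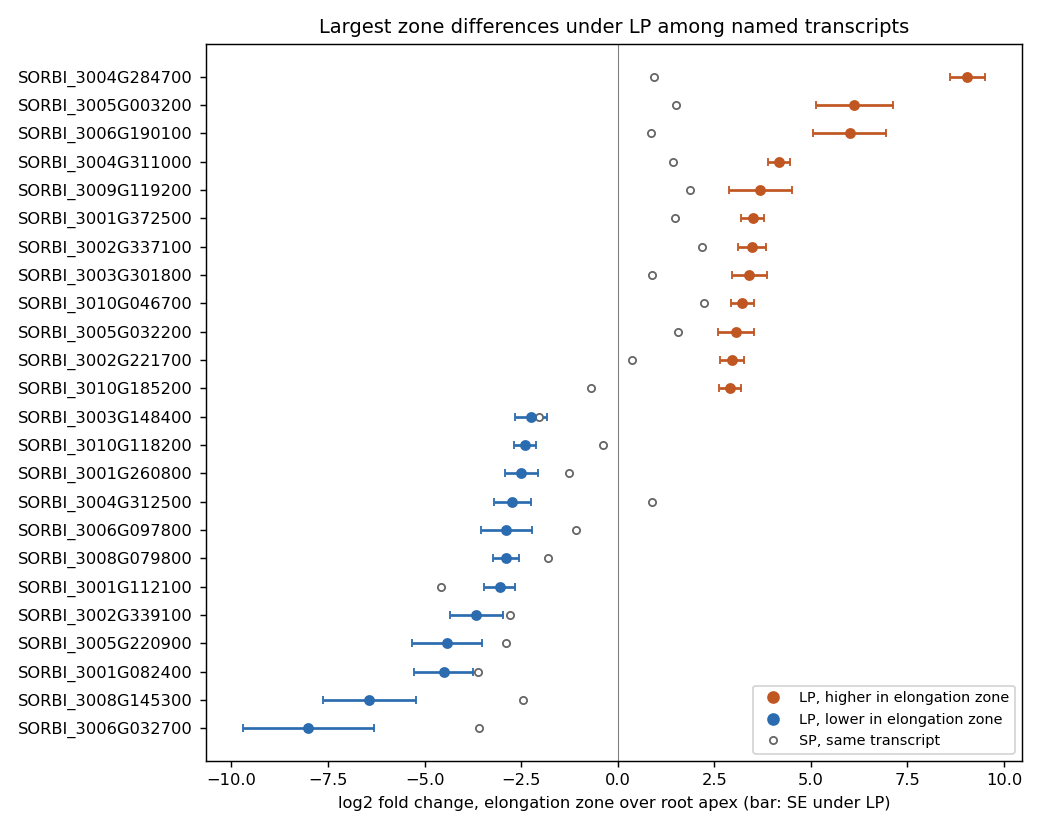
Log2 fold change of elongation zone over root apex under LP (filled points, bars are the SE) for the 12 largest rises and 12 largest falls among transcripts with a gene, averaging 5 CPM or more over the LP libraries and moving alike in each pair of equal number; open points give the SP value. The rises run from 2.90 to 9.05 and the falls from -2.24 to -8.01.

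Zone differences under LP ran mostly in the same direction under SP. Of the 1442 transcripts higher in the LP elongation zone, 87.4% were also higher there under SP by sign, and of the 821 lower, 91.1% were also lower. Over all 33039 tested transcripts, 17106 were higher and 15325 lower under SP by sign. Their median log2 fold changes under SP were 1.28 and -0.97. Of the 1442, 119 (8.25%) were also called higher under SP, and of the 821, 99 (12.1%) were also called lower. In the other direction, these were 89.5% of the 133 called higher under SP and 58.2% of the 170 called lower. These shares rest on call counts that moved with the libraries fitted: the 133 and 170 became 1388 and 1514 with only the 4 SP libraries, where the 4 LP libraries alone gave 0 and 0, and ran from 0 to 495 and from 0 to 688 with 1 library left out. A call at one phosphorus level and not at the other is not a difference between them: the LP minus SP test called 4 transcripts (0.0121%), of which 3 (0.00908%) had the larger log2 fold change under LP and 1 (0.00303%) the smaller.

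Of the transcripts with no gene at hand, OQU81203 and KXG21064 had the largest rises among those averaging 5 CPM or more, at 0 counts in both LP apex libraries and at 66.1 and 165, and 48.1 and 130.3 CPM in the LP elongation zone. They were at least 916-fold and 703-fold higher against a floor of 3 counts over the group. By the same criteria KXG37548 and KXG31855 had the largest falls, from 66.7 and 83.5, and 25.3 and 49.8 CPM in the apex to 0 counts in both elongation zone libraries, at least 933-fold and 487-fold lower. KXG37548 was also at 0 in both SP apex libraries and at 20.6 and 33.2 CPM in the SP elongation zone. Kallisto divides reads among transcripts of one gene and among near copies, and whether reads moved to another transcript of the same gene was not tested for these IDs.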

How the data were processed

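Poly-A RNA of sorghum root segments was sequenced as paired-end reads. The authors trimmed the reads and quantified them with kallisto on sorghum transcripts. The deposited values are estimated counts per transcript for each replicate, without normalization. The same deposited files give TPM within each library, made by kallisto and not used for a test, and transcript lengths. The kallisto version is not given in the sources used here, nor are its settings. Reads that fit several transcripts are divided among them by the estimate, so transcripts of near copies or of one gene are uncertain.

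Libraries were placed in groups from their labels. After rounding, the 10 libraries were modelled together as 6 groups, region by phosphorus level, in edgeR 4.0.16 under R 4.3.3 (with limma 3.58.1), using TMM factors, filterByExpr and quasi-likelihood F tests. This left 33039 of 47110 transcripts, 4 residual degrees of freedom and a common dispersion of 0.346. P-values were adjusted by Benjamini and Hochberg over all tested transcripts (threshold 0.05). Contrasts were elongation zone minus root apex under LP and under SP, and the difference of the 2. The script was tested on simulated data. DESeq2 1.42.0, other filters, normalizations, blocks and subsets of libraries were alternatives. Leaving out elongation zone LP replicate 2 and root apex LP replicate 2 together was chosen after seeing the data. The SE of a log2 fold change was derived from its F statistic. Where a group had 0 counts the fold is a bound against 3 counts over the group, and where it had 1 to 3 the ratio has a 95% exact binomial interval.

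The labels do not say that replicates came from separate cultures, while the methods call each pool of 10 plants a biological replicate, so p-values measure the spread between these pools. IDs were paired with genes only through the study's supplementary tables (775 IDs, of a copy of the second table that is in part truncated, 1999 rows read), and none matched the 32945 genes of the RefSeq table used here. Names are those of Arabidopsis matches or InterPro families. Members, lists and tests were chosen with earlier results of these data known. Named genes are, among paired transcripts, the 12 largest called rises and falls at a mean of at least 5 CPM and moving alike in both same-numbered pairs, up to 4 called members of each list, all markers and PSI members and called LP minus SP differences, and of unpaired IDs the 2 largest rises and falls by the same criteria. Tables of differential methylation, which hold the authors' own comparison, were not used.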

Additional observations from a re-analysis of the deposited data

Results flagged for a closer look

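The LP minus SP test of edgeR called 4 transcripts whose zone difference itself differed between phosphorus levels, at an adjusted p of 0.0413 each. For SORBI_3004G284700 (EES05741), of the ALMT family, the difference was 8.11 on the log2 scale. EER96724, with no gene at hand, stood at 5.78 and 6.07 CPM in the LP apex, 99.3 and 97.3 CPM in the LP elongation zone and 0.517 to 0.819 CPM in the 4 SP libraries, a difference of 4.61. KXG36521, also without a gene, stood at 0.498 and 0.718 CPM in the LP apex, 38.3 and 52.1 CPM in the LP elongation zone and 4.59 to 6.33 CPM under SP, a difference of 6.45. KXG37548 was at 0 in the LP elongation zone and the SP apex, and its fitted difference of -24.93 depends on the prior count and is no bound. EER96724 and KXG36521 fall outside the rule for naming and were chosen after their values were seen. The calls were lost with any 1 root apex library left out, with either SP elongation zone library left out and with any block.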

How the results depend on the processing

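Counts of higher and lower calls under LP (1442 and 821) became 0 and 0 with only the 4 LP libraries, 3006 and 2226 with DESeq2, 860 and 542 with a block for fragment length, and 610 and 158 when tested against a change of 1 on the log2 scale. Leaving out 1 library gave 241 to 2641 and 127 to 3215. The SP counts (133 and 170) became 1388 and 1514 with only the 4 SP libraries, 952 and 1210 with DESeq2, 236 and 306 with no filter, 314 and 326 at a mean of at least 5 CPM, 18 and 19 against a change of 1, and 911 and 1157 without elongation zone LP replicate 2 and root apex LP replicate 2. The fragment length block gave 297 lower. Leaving out 1 library gave 0 to 495 and 0 to 688. The LP minus SP calls (4) became 942 with DESeq2, 70 with no filter, 62 at a mean of at least 5 CPM, 2 against a change of 1, 0 with the fragment length block, 0 without both libraries named above, and 0 to 1488 without 1 library. OQU82103, not called at a log2 fold change of 0.53, went from -10.3 (called, without elongation zone LP replicate 1, which leaves the library where it is at 0) to 1.73 (without both libraries named above).

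Same-numbered LP libraries of the 2 zones deviated together at r = 0.227, and SP libraries at 0.028. The labels do not state that a number marks shared plants. A replicate block of the label numbers gave 1295 higher and 710 lower under LP and 0 LP minus SP calls. Pairing by plant pool as a replicate block in the 8 seminal root libraries gave 1633 and 1181 under LP, 41 and 53 under SP and 0 for the difference. The 12 higher PSI transcripts became 10 and 11 under these blocks.

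No filter, a mean of at least 5 CPM, RLE normalization, an offset for effective length, only the 8 seminal root libraries, and leaving out transcripts at 0 in 1 library kept the LP counts within 1.5 times. Having 2 libraries a group, rounding of estimated counts and the shared spread limit the calls, and where a fit leaves 1 library in a group that library is assumed to vary like the others.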
